A study of Rattus norvegicus with 5 samples.

Results

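In all, 10 genes for transcription factors of the lens were followed across the 5 arrays of the series. They comprised 4 epithelial factors (Pax6, Foxe3, Sox2 and Six3), 4 fiber factors (Prox1, Maf, Hsf4 and Pitx3), and Zeb2 and Meis1. Members were the probe sets to which the platform annotation gives exactly 1 of these symbols. All 10 were on the array, with 1 probe set each, among 18166 genes that had a probe set of 1 symbol. The study asked which lens genes change when DNA damage clouds the lens, using lenses of 6-week-old male Sprague Dawley rats kept outside the body in serum-free M199 medium with bovine serum albumin, renewed daily. The treated arrays held RNA of lenses given 1 mM MMS (methyl methanesulfonate, which alkylates DNA bases) for 2 days (MMS Day 2) or 4 days (MMS Day 4), or 800 μg/mL Bleomycin (which breaks DNA strands) for 2 days (Bleomycin Day 2) or 6 days (Bleomycin Day 6). Control held RNA of a lens kept 4 days in normal medium, so that only MMS Day 4 matched its time in culture. Each condition had 1 array, no gene had a replicate, and no difference given here could be tested or set against a spread between lenses. In the other 3 comparisons with Control, drug and days in culture cannot be told apart.

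The lens is built of 2 cell forms, a thin sheet of dividing epithelial cells under the anterior capsule and a mass of elongated fiber cells that derive from them at the equator. Pax6, Foxe3, Sox2 and Six3 belong to the program that forms the lens placode and keeps the epithelium, and Prox1, Maf, Hsf4 and Pitx3 act in exit from the cell cycle, in crystallin expression and in the maturation of fibers, as known chiefly from the mouse. The division is one of emphasis, since Prox1, Maf and Pitx3 are also made in epithelial cells. Whole lenses were ground for RNA, so fewer cells of a type and less RNA per cell cannot be told apart in any of the values below.

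As a set the 4 epithelial factors lay farthest under Control, so the 250 bases before their RefSeq transcription starts are shown (rat build GRCr8, gene strand, 5′ to 3′). Capitals mark TGACAG, the core letters bound by Meis factors, which in the mouse act on Pax6. Pax6 lies at chr3:112590346-112590595 on the plus strand, Foxe3 at chr5:133683267-133683516 on the minus strand, Sox2 at chr2:119464881-119465130 on the plus strand, and Six3 at chr6:14796257-14796506 on the minus strand.
Pax6: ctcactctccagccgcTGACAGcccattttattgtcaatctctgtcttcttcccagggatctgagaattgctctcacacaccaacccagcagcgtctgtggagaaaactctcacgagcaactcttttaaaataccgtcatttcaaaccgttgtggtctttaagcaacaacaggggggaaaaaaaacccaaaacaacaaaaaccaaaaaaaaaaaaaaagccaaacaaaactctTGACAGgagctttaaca
Foxe3: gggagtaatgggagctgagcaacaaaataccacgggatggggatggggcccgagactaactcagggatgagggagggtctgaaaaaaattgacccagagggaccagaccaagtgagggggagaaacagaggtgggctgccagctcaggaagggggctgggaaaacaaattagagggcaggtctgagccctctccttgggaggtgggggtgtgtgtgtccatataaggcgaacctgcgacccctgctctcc
Sox2: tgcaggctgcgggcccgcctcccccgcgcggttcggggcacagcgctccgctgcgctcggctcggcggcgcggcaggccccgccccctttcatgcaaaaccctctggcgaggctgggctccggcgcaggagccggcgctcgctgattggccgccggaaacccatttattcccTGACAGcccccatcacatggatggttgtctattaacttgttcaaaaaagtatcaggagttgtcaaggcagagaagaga
Six3: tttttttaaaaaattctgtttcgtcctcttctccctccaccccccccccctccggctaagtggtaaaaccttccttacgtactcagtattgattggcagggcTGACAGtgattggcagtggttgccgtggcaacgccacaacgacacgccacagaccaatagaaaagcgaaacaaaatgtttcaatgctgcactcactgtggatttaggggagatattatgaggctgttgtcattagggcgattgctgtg
The stretch before Pax6 held TGACAG at 234 to 229 and again at 17 to 12 bases before the start. The one before Sox2 held it at 78 to 73 bases and the one before Six3 at 148 to 143 bases, while the 250 bases before Foxe3 held none on either strand. With both strands read, 4 of the 8 members found in the promoter table had TGACAG, the fourth being Maf (as CTGTCA, 194 to 189 bases before the start), against 15.8% of 33469 promoters of the same length. No promoter was matched for Prox1 or Hsf4.

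A further 7 motifs were searched on both strands. ACAAAG, a Sox motif, stood before Zeb2 at 139 to 134 bases and in 16.3% of all promoters. The others were in none of the 8 members: CACCTG, bound by Zeb factors (15.9% of all promoters), TGCTGAC, the core of the Maf element, which shares the letters TGAC with TGACAG (3.53%), TAATCC, bound by Pitx factors (6.34%), ACAATG, a second Sox motif (11.1%), GAANNTTC of heat shock factors (7.23%) and TAATTA of homeodomains (4.86%). Of the motifs searched, TGACAG, the one marked with capitals, was the one found in the most members, and its share was not tested. These matches describe the letters in the window and no binding.

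The deposited values are log2 signals, on which a difference of 1 is a 2-fold difference. Array medians were 2.95 and 3.02 with MMS (Day 2, Day 4), 2.93 and 2.98 with Bleomycin (Day 2, Day 6) and 2.84 in Control. A log2 signal of 5, the study's own limit for a gene to be kept, was reached in some array by 4033 genes and by 9 of the 10 members, all but Meis1. Over those 4033 genes the median difference from Control was -0.15 and -0.46 after 2 and 4 days of MMS. After 2 and 6 days of Bleomycin it was -0.14 and -0.28. Differences near these sizes were those of the usual gene among the 4033. Genes that reached 5 numbered 3692 in Control, 3168 and 2624 with MMS, and 3113 and 2872 with Bleomycin (earlier, then later array). The set thus leans on Control, and over all 18166 genes the median difference was 0.00 in each array. Values relative to the median gene hold for the 4033 genes alone. Where 4 values of the treated arrays stand in a row with no further label, they run through MMS at 2 and 4 days and then Bleomycin at 2 and 6 days. From 13.6% to 18.4% of probe sets had exactly the Control value in a given treated array.

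Pax6, the paired-box regulator at the head of eye and lens formation, had the lowest difference from Control of any member, in MMS Day 4. Its log2 signal was 5.60 on Day 2 and 4.24 on Day 4 of MMS, 4.65 on Day 2 and 4.37 on Day 6 of Bleomycin, and 7.33 in Control. The highest of the 4 treated arrays differed from Control by -1.73, and 3 of them lay under the limit of 5. The signal was 3.32-fold and 8.48-fold lower after 2 and 4 days of MMS, and 6.40-fold and 7.74-fold lower after 2 and 6 days of Bleomycin. Counted from the lowest difference, Pax6 stood at rank 71, 31, 27 and 40 of the 4033 genes. The Bleomycin Day 2 value of Pax6 was shared to the last digit by 67 other probe sets of that array.

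Foxe3, a forkhead factor that in the mouse keeps the lens epithelium dividing and alive, was near one low value in all treated lenses. It had a log2 signal of 4.40 on Day 2 and 4.55 on Day 4 of MMS, 4.55 on Day 2 and 4.55 on Day 6 of Bleomycin, and 6.23 in Control. The last 3 treated values were exactly equal, the MMS Day 2 value was shared with 80 other probe sets, and all 4 lay under 5. Differences from Control were -1.84 with MMS at 2 days and -1.68 for the other treated lenses, or 3.57-fold and 3.20-fold lower. The equal values leave no order between MMS Day 4 and the Bleomycin arrays.

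Sox2, an HMG-box partner of Pax6 in the lens placode, was spread more widely over the treated lenses. Its log2 signal was 4.88 and 3.52 after 2 and 4 days of MMS, 5.51 and 4.25 after 2 and 6 days of Bleomycin, and 6.42 in Control. The later array of each drug was under the earlier one, and Bleomycin Day 2, at 1.88-fold lower than Control, was the only treated array inside 2-fold. The other differences from Control were -1.54 and -2.90 with MMS on Day 2 and Day 4 and -2.16 with Bleomycin on Day 6, which is 2.91-fold, 7.46-fold and 4.48-fold lower.

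Six3, a homeobox factor that in the mouse activates Pax6 and Sox2 in the future lens, differed from Control chiefly in the later arrays. It read 6.30 on Day 2 and 5.21 on Day 4 of MMS, 6.52 on Day 2 and 5.74 on Day 6 of Bleomycin, and 6.82 in Control on the log2 scale. No array was under 5. The difference from Control was -0.53 and -1.62 after 2 and 4 days of MMS, and -0.31 and -1.08 after 2 and 6 days of Bleomycin. Taken relative to the median gene of each array, the later values were -1.16 in MMS Day 4 and -0.80 in Bleomycin Day 6, so that the second of them was no longer 2-fold. After centring of arrays on the median signal of the 4033 genes, a different scaling, Six3 was inside 2-fold in MMS Day 4 as well, at -0.99.

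**Figure D1:**
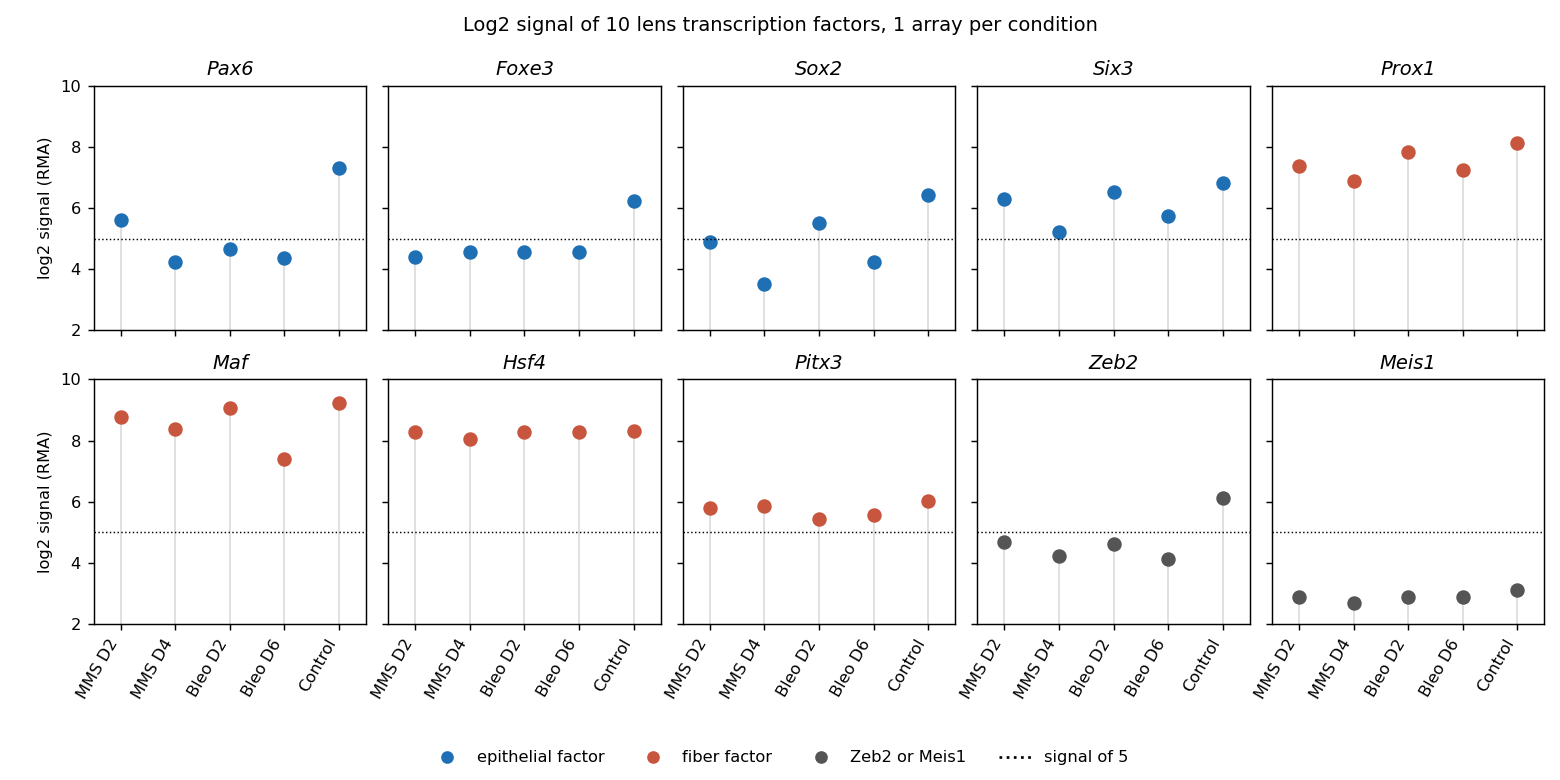
Log2 signal (vertical axis) of the 10 members with MMS on Day 2 and Day 4 (MMS D2, MMS D4), Bleomycin on Day 2 and Day 6 (Bleo D2, Bleo D6) and in Control, 1 point per array, blue for epithelial factors, red for fiber factors and grey for Zeb2 and Meis1, with a dotted line at a signal of 5. Pax6 lies between 4.24 and 5.60 in the treated arrays and at 7.33 in Control, while Hsf4 lies between 8.05 and 8.31 in all 5.

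Among the fiber factors, Prox1 is the homeobox factor that in the mouse is needed for fiber elongation and for the cell cycle inhibitor Cdkn1c. Its log2 signal was 7.38 on Day 2 and 6.89 on Day 4 of MMS, 7.84 on Day 2 and 7.24 on Day 6 of Bleomycin, and 8.13 in Control. MMS Day 4 was the lowest array and the only one past 2-fold, at 2.35-fold lower than Control. The other differences were -0.75 with MMS on Day 2 and -0.28 and -0.89 with Bleomycin on Day 2 and Day 6. Relative to the median gene, Prox1 in MMS Day 4 stood at -0.77 and so inside 2-fold.

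Maf, the basic leucine zipper factor c-Maf that drives crystallin genes in mouse fibers, stood apart in a single array. Its log2 signal was 8.78 and 8.37 after 2 and 4 days of MMS, 9.06 and 7.40 after 2 and 6 days of Bleomycin, and 9.24 in Control. Bleomycin Day 6 was 3.57-fold lower than Control, and the other 3 treated arrays were inside 2-fold, at -0.46 and -0.87 with MMS on Day 2 and Day 4 and -0.18 with Bleomycin on Day 2.

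Hsf4 encodes the heat shock factor of the lens, in which mutations cause cataract in people and mice. It had a log2 signal of 8.27 on Day 2 and 8.05 on Day 4 of MMS, 8.29 on Day 2 and 8.29 on Day 6 of Bleomycin, and 8.31 in Control. The Bleomycin arrays were exactly equal, and the widest difference from Control was -0.26, in MMS Day 4. Relative to the median gene of that array Hsf4 stood higher, by 0.20.

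Pitx3, the homeobox factor lost in the aphakia mouse, also stayed inside 2-fold. Its log2 signal was 5.79 and 5.87 after 2 and 4 days of MMS, 5.44 and 5.56 after 2 and 6 days of Bleomycin, and 6.03 in Control. The Bleomycin arrays, at -0.59 on Day 2 and -0.48 on Day 6, lay farther under Control than the MMS arrays, at -0.25 on Day 2 and -0.16 on Day 4.

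Zeb2, a zinc-finger repressor that in the mouse lets the lens vesicle part from the surface ectoderm, was low in every treated lens. Its log2 signal was 4.70 on Day 2 and 4.21 on Day 4 of MMS, 4.60 on Day 2 and 4.14 on Day 6 of Bleomycin, and 6.13 in Control. All treated values were under 5, and the differences from Control were -1.43, -1.92, -1.53 and -1.99, or 2.70-fold to 3.98-fold lower. Meis1, a homeobox factor that acts upstream of Pax6 in the mouse lens placode, was dim on all arrays. It read 2.89 and 2.70 after 2 and 4 days of MMS, 2.89 and 2.89 after 2 and 6 days of Bleomycin, and 3.11 in Control on the log2 scale. The values at 2.89 were exactly equal and all values were near the array medians, so its differences, from -0.42 to -0.22, are given with no reading.

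**Figure D2:**
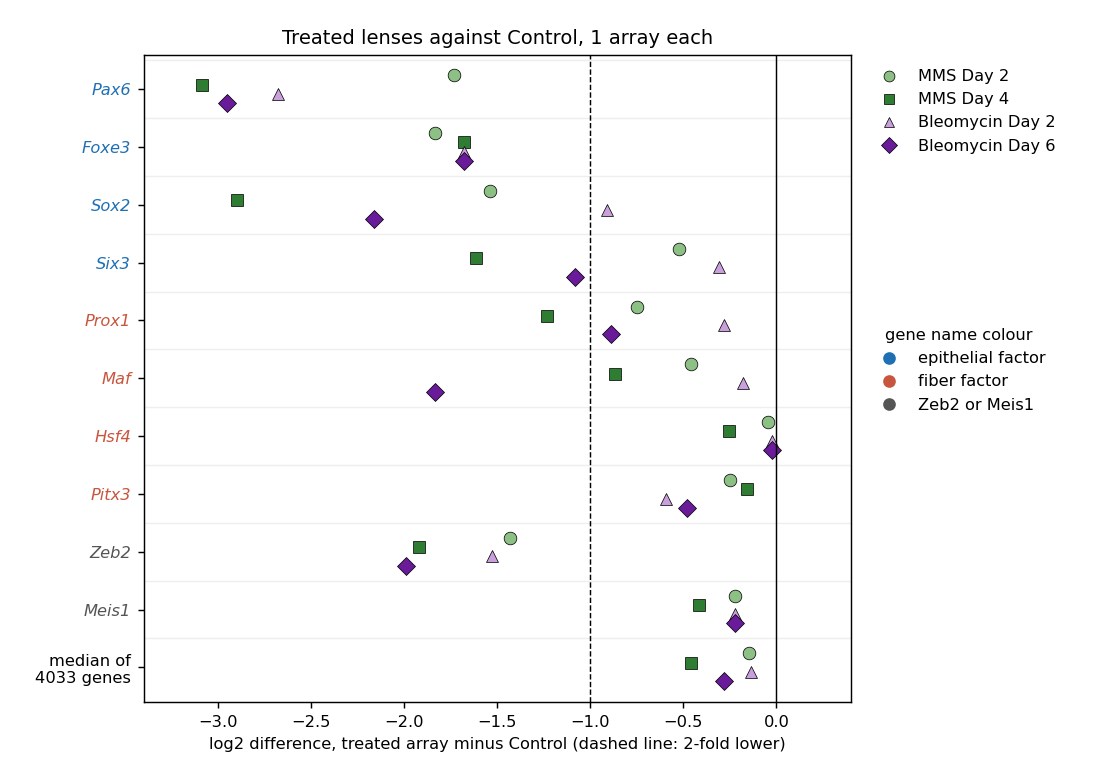
Log2 difference of each treated array from Control (horizontal axis) for the 10 members, 1 symbol per treated array, with the median of 4033 genes in the lowest row and a dashed line at 2-fold lower. Pax6, Foxe3 and Zeb2 lie past the dashed line in all 4 arrays, and Hsf4, Pitx3 and Meis1 in none.

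Counted over the members, 4 of 10 were at least 2-fold lower than Control in MMS Day 2 (Pax6, Foxe3, Sox2 and Zeb2), where 2.85% of all 18166 genes were. In MMS Day 4 the count was 6 of 10, the same 4 with Six3 and Prox1, against 8.10% of genes. In Bleomycin Day 2 it was 3 of 10 (Pax6, Foxe3 and Zeb2), against 3.07% of genes. In Bleomycin Day 6 it was 6 of 10 (Pax6, Foxe3, Sox2, Six3, Maf and Zeb2), against 6.11% of genes. Most of these 18166 genes read under 5 on all arrays. The median difference over the 10 members was -0.64, -1.42, -0.45 and -1.38, and over all 18166 genes it was 0.00 in each array.

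A nearer background is the 1743 genes whose Control signal lay in the range of the 9 brighter members, 6.03 to 9.24, a range chosen after the values were seen. Of these genes 11.9% were at least 2-fold lower on Day 2 of MMS and 33.3% on Day 4, and 11.1% on Day 2 of Bleomycin and 22.6% on Day 6. The 9 members in the range held all the calls, but the range was set on the Control signal, which enters each difference, and Foxe3 and Zeb2 reached 5 in Control alone. The shares are therefore given as a description, with nothing read from the members' counts against them. No member was 2-fold higher in any array, where 0.738%, 2.33%, 0.644% and 1.66% of all genes were. All 40 differences from Control were below 0, but these comparisons share the 1 Control array, and after centring of arrays on the median signal of the 4033 genes 7, 7, 6 and 8 of the 10 members were below Control, with Hsf4 and Meis1 above it in all 4 arrays.

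**Figure D3:**
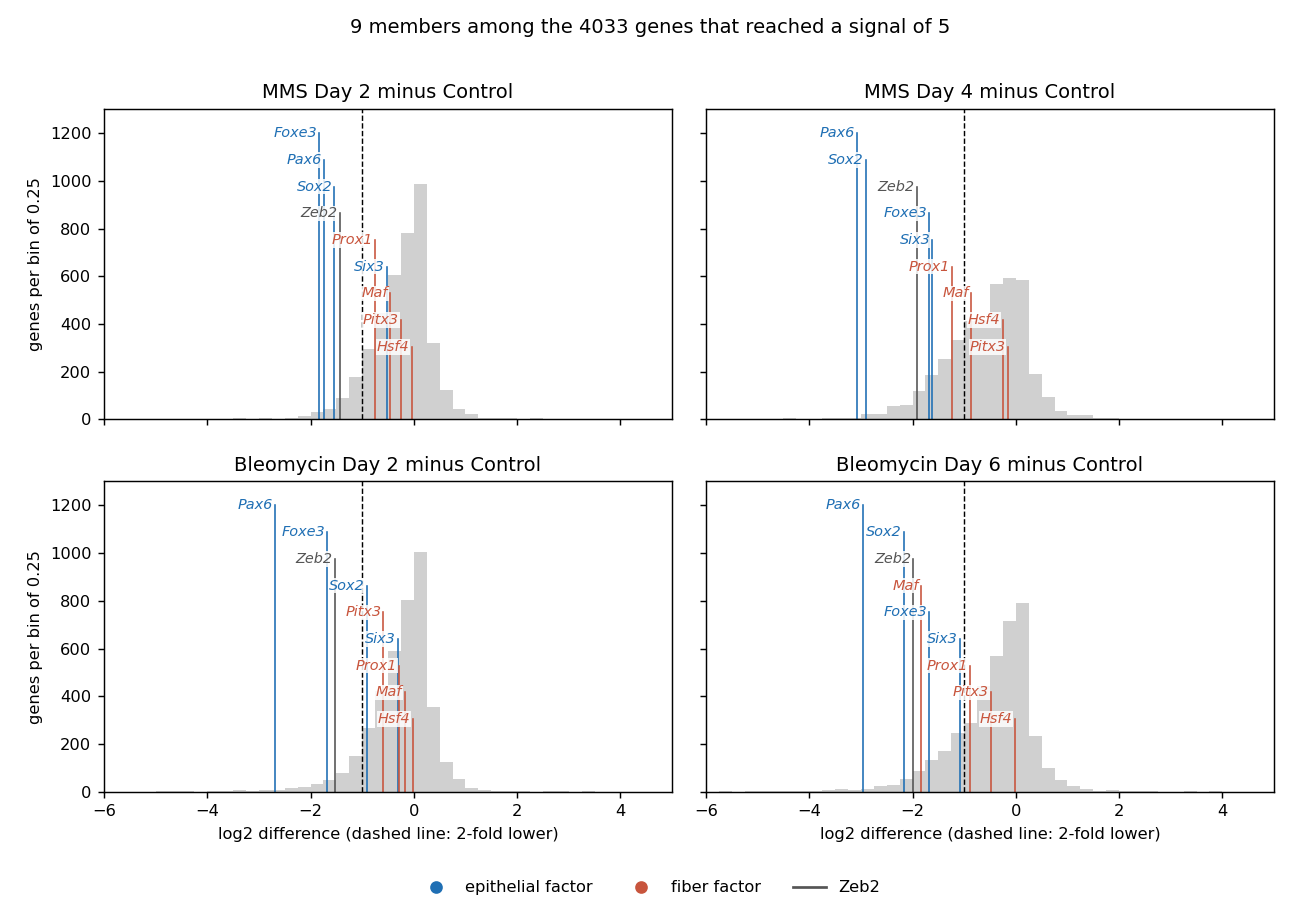
Number of genes per bin of 0.25 (vertical axis) by log2 difference from Control (horizontal axis) for the 4033 genes that reached a signal of 5, one panel per treated array, with a named line at each of the 9 members among them and a dashed line at 2-fold lower; the height of a named line has no meaning. Pax6 lies in the left tail in all panels, at -1.73, -3.08, -2.68 and -2.95, and Hsf4 within the main peak.

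The median of the 4 epithelial factors was farther below Control than that of the 4 fiber factors in each treated array. The epithelial median was -1.64 and the fiber median -0.35 in MMS Day 2, a gap of -1.28. In MMS Day 4 the epithelial median was -2.29 and the fiber median -0.56, a gap of -1.73, and there the sets did not overlap, since the highest epithelial factor (Six3, -1.62) was under the lowest fiber factor (Prox1, -1.23). The sets overlapped in the other 3 arrays. Six3 was above Prox1 in MMS Day 2 (-0.53 and -0.75) and above Pitx3 in Bleomycin Day 2 (-0.31 and -0.59). In Bleomycin Day 6 Maf (-1.83) was below Foxe3 (-1.68) and Six3 (-1.08). Bleomycin Day 2 had an epithelial median of -1.29 and a fiber median of -0.23, a gap of -1.06, and Bleomycin Day 6 had an epithelial median of -1.92 and a fiber median of -0.68, a gap of -1.24. After the same centring the gaps were the same, but the fiber median was above 0 in MMS Day 4 (0.067) and Bleomycin Day 2 (0.056). Of the epithelial factors 3, 4, 2 and 4 of 4 were at least 2-fold lower, and of the fiber factors 0, 1, 0 and 1 of 4. Over all 18166 genes the share was 2.85%, 8.10%, 3.07% and 6.11%, and over the 1743 genes of like Control signal it was 11.9%, 33.3%, 11.1% and 22.6%. The second background was set on the Control signal after the values were seen, so the count of neither set is read against it.

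In the later MMS array 3 of 10 members were at least 2-fold lower than in the earlier one (MMS Day 4 minus MMS Day 2). The share was 2.28% over all genes, most of which read under 5. Of the 4033 genes that reached 5, 316 were, and of the 1743 of like Control signal, 167, both larger shares than over all genes. Sox2 had -1.36, Pax6 -1.35 and Six3 -1.09. The median gene had -0.27 in this comparison, and relative to it Six3 stood at -0.81. In the later Bleomycin array (Bleomycin Day 6 minus Bleomycin Day 2) 2 of 10 were at least 2-fold lower, Maf with -1.66 and Sox2 with -1.26. The share was 1.21% over all genes. It was larger among the 4033 genes that reached 5, with 163, and the 1743 of like Control signal, with 96. Pax6 had -0.27 there, near the -0.11 of the median gene, and its earlier Bleomycin value was 6.40-fold lower than Control. Both its Bleomycin values were under 5 and the earlier was shared with 67 other probe sets. No course over days is read from them. Zeb2 had -0.49 with MMS and -0.46 with Bleomycin, and Prox1 had -0.48 and -0.61. Foxe3 had 0.16 with MMS and 0.00 with Bleomycin, and Pitx3 0.09 and 0.11, so neither read lower in the later array.

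**Figure D4:**
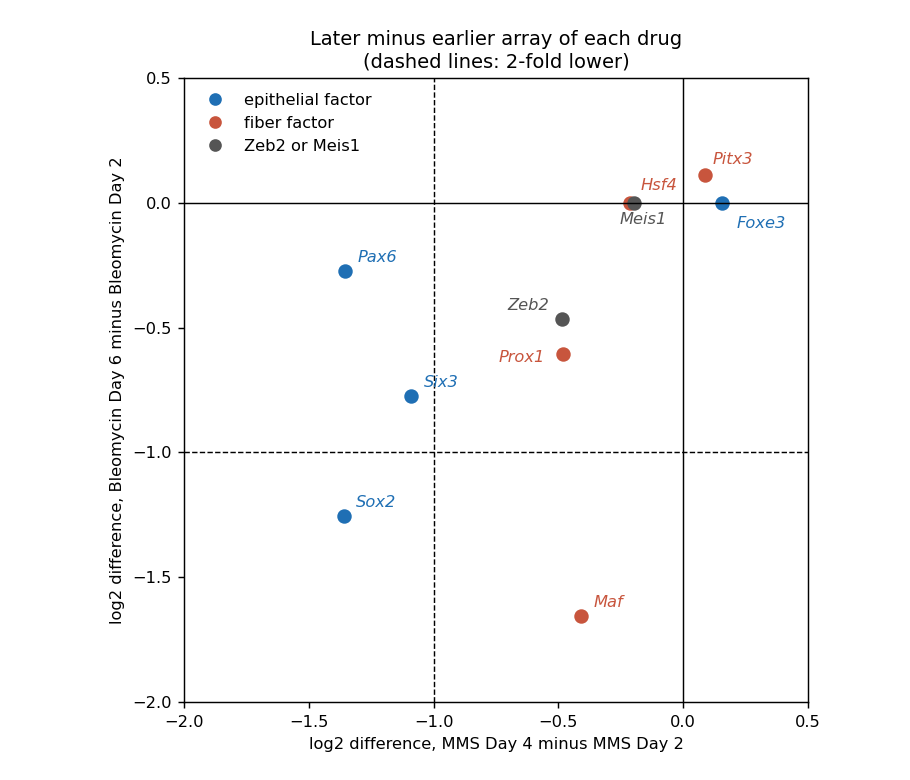
Log2 difference of the later minus the earlier array of each drug, MMS on the horizontal axis and Bleomycin on the vertical axis, 1 point per member, with dashed lines at 2-fold lower. Sox2 lies past both lines, Pax6 and Six3 past the MMS line alone, and Maf past the Bleomycin line alone.

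Between the drugs no member was 2-fold apart, either in MMS Day 2 against Bleomycin Day 2, where 0.831% of all genes were, or in MMS Day 4 against Bleomycin Day 6, where 2.25% were. The widest Day 2 difference (MMS minus Bleomycin) was that of Pax6, at 0.95, though its Bleomycin value was under 5 and was the one shared with 67 other probe sets, followed by Sox2 at -0.63 and Prox1 at -0.47. In the later arrays Maf had 0.97, or 1.06 relative to the median gene, and Sox2 had -0.73. These later arrays differ in days as well as in drug. Without a replicate, likeness of the drugs cannot be shown by these values either.

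Other regulators of the eye and lens placode were mostly too dim to read. Of 30 listed genes, 22 were on the array and 3 reached 5 in any array. Mab21l1, needed for the lens in the mouse, had -1.90 on Day 2 and -2.36 on Day 4 of MMS, and -1.71 on Day 2 and -2.34 on Day 6 of Bleomycin, from a log2 signal of 6.82 in Control. Tfap2a, the AP-2 factor of the surface ectoderm and lens epithelium, had -1.35, -2.30, -2.32 and -2.04, with 6.51 in Control. Mitf, the factor of pigment cells, was listed at exactly its Control value of 5.06 in both MMS arrays and had 0.79 and -0.24 in the Bleomycin arrays. Over all genes, 2.85%, 8.1%, 3.07% and 6.11% were at least 2-fold lower, and 0.738%, 2.33%, 0.644% and 1.66% were 2-fold higher. Of the 22 genes, 2 were at least 2-fold lower in each array (Mab21l1 and Tfap2a), and 0, 1, 0 and 3 were 2-fold higher. The higher ones, named after their values were seen, were Pitx1 in both later arrays (1.45 and 1.07) and Otx2 and Sox11 in Bleomycin Day 6 (1.29 and 1.10), and none reached a signal of 5 in any array.

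Of 21 paralogs and partners of the members, 18 were on the array and 5 reached 5. Meis2, a close relative of Meis1, with 6.06 in Control, had -1.0004 and -1.70 after 2 and 4 days of MMS, and -1.06 and -1.38 after 2 and 6 days of Bleomycin. Pbx3, of the family that binds DNA with Meis factors, had -0.81, -0.56, -0.25 and -0.69. Mafk, a small Maf protein that pairs with other leucine zipper factors, had -0.76, -0.03, 0.26 and 0.69. Shares over all genes were 2.85%, 8.1%, 3.07% and 6.11% at least 2-fold lower, and 0.738%, 2.33%, 0.644% and 1.66% 2-fold higher. At least 2-fold lower were 1, 2, 1 and 1 of the 18, and 2-fold higher 0, 0, 0 and 1. Beside Meis2 these were Zeb1, a relative of Zeb2, lower in MMS Day 4 (-1.01), and Nrl, a Maf relative of photoreceptors, higher in Bleomycin Day 6 (1.61), both under a signal of 5 on all arrays and named after their values were seen.

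Genes known from the mouse and other vertebrates as targets on the epithelial side were mostly lower than Control in the treated arrays. Of 7 such genes, all on the array, 4, 6, 4 and 5 were at least 2-fold lower, and the medians were -1.06, -2.27, -1.62 and -2.49. The share over all genes was 2.85%, 8.1%, 3.07% and 6.11%. Of the 4033 genes that reached 5, 382, 1087, 379 and 790 were at least 2-fold lower. In each array that is a larger share than over all genes. The target and marker lists were chosen with earlier results of these data known, so their counts are a description. Cdh1, the E-cadherin of epithelial junctions, had -1.86, -3.22, -3.19 and -3.86. Pdgfra, the PDGF receptor which in the mouse depends on Foxe3, had -2.98, -3.51, -3.35 and -2.98. Gja1, a connexin of epithelial gap junctions, had -0.26, -2.98, -3.77 and -3.31, so that MMS Day 2 alone was near Control. These 3 are also lens epithelium markers. Pdgfra read 4.22, 3.70, 3.86 and 4.22 in the treated arrays, its first and last values being equal, and Gja1 read 6.28, 3.55, 2.76 and 3.23. Precision was not measured under 5, so the sizes of differences that rest on such values are uncertain. The other calls, named after their values were seen, were Ccnd2, a cyclin (-1.06, -2.27, -1.62 and -2.49), Dnajb1, a chaperone partner of heat shock proteins, in both MMS arrays (-1.39 and -1.26), and Fgfr2, a growth factor receptor, in both later arrays (-1.10 and -1.23). Ccnd1, another cyclin and the seventh gene of the list, was under a signal of 5 on all arrays, with 0.32, 0.43, 0.015 and -0.051.

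Targets on the fiber side had medians near 0, with members on either side of it. All 13 on the array, of 20 listed, reached 5, and their medians were 0.02, 0.02, -0.01 and -0.01. At least 2-fold lower were 1, 1, 0 and 1 of the 13, against 2.85%, 8.1%, 3.07% and 6.11% of all genes. Differences ran from -1.30 to 0.40 in MMS Day 2, and 5, 6, 7 and 7 of the 13 were below Control. Control signals of the list reached 13.27, and whether the brightest probe sets could still read a change was not tested. Cdkn1c, the cell cycle inhibitor p57 that Prox1 controls in the mouse, had -1.30 on Day 2 and -1.28 on Day 4 of MMS, and -0.82 on Day 2 and -0.80 on Day 6 of Bleomycin. Gja3, a connexin of fibers, had -0.79, -0.84, -0.36 and -1.12. Fgfr3, a receptor for the growth factor signal that starts fiber differentiation, had -0.48, -0.43, -0.45 and -0.84.

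Lens epithelium markers were lower along with the epithelial factors in all 4 treated arrays, and their part in these values was not tested. Of 8 lens epithelium markers 6, 4, 5 and 4 reached a signal of 5 in the treated arrays, and all 8 in Control. Their signals ranged over 3.26 to 10.58, 3.55 to 9.23, 2.76 to 10.26 and 3.23 to 10.02 in these arrays, and over 6.30 to 12.07 in Control. Their median difference was -1.51, -2.91, -2.73 and -2.78, so that the epithelial factors, at medians of -1.64, -2.29, -1.29 and -1.92, were less far below Control than the markers in 3 of 4 arrays. The factors were dimmer, with a median signal of 6.62 in Control against 8.52 for the markers. In the treated arrays the factors' median signals were 5.24, 4.40, 5.08 and 4.46. Whether they could still read a wider difference was not tested, so these medians do not show which set fell more. Slc2a1, a glucose transporter on the marker list, had -1.53, -4.10, -3.00 and -3.31.

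The 7 lens fiber markers on the array, of 10 listed, were at 5 or more in all 5 arrays, and their median difference was 0.08, 0.16, 0.05 and 0.09. Gja3, already given among the targets, was below Control in all 4 arrays and 2-fold lower in Bleomycin Day 6, the widest difference of any of these markers. Mip, the aquaporin of fiber membranes, had 0.02, 0.02, 0.59 and -0.36, and Dnase2b, the nuclease that in the mouse clears fiber nuclei and depends on Hsf4, had 0.40, 0.41, 0.44 and 0.30. No marker of retina (6 on the array), pigment epithelium and melanocytes (7), corneal epithelium (3), stroma (5), vascular endothelium (3) or macrophages and blood (4) reached 5 in any array, the highest being a retina marker at 4.90 in Bleomycin Day 2. Defining markers of lens fibers were thus bright on all arrays, and those of lens epithelium in Control.

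**Figure D5:**
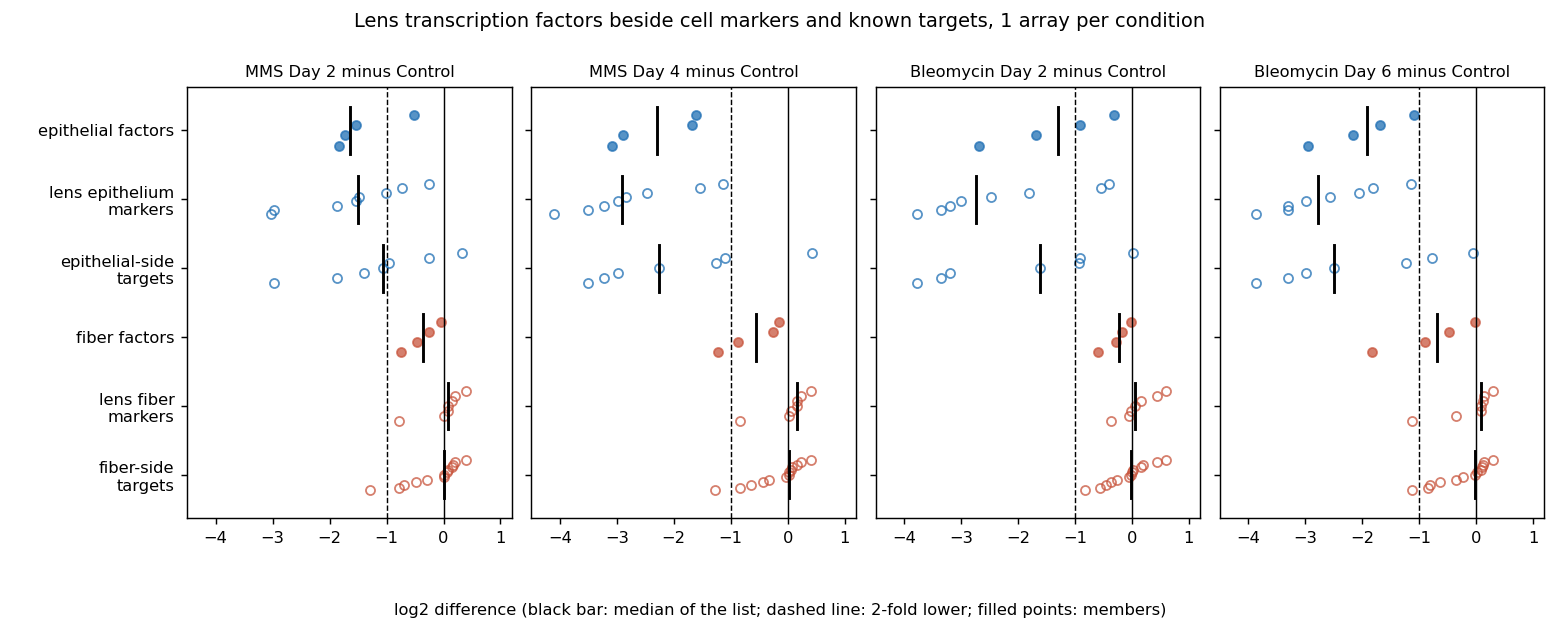
Log2 difference from Control (horizontal axis) of the epithelial and fiber factors (filled points), of lens epithelium and fiber markers and of targets on either side (open points), 1 point per gene and 1 panel per treated array, with a black bar at each median and a dashed line at 2-fold lower; some genes stand in both a marker and a target list. The epithelial medians lie between -2.91 and -1.06 and the fiber medians between -0.68 and 0.16.

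The genes most like each changed member were sought by the root mean square distance between their 4 differences from Control, among 4024 other genes that reached 5. Since all 4 differences use the same Control value, a distance describes 5 arrays and no more. Foxe3 and Zeb2 reached 5 in Control alone and so entered the search only through the array where they were high. Their nearest genes are listed with no reading. Nearest to Pax6 were Pgf, a growth factor of the VEGF family (0.191), Plxdc2 (0.258) and Loxl2, a lysyl oxidase (0.317). Nearest to Foxe3 were Pik3r1, a regulatory subunit of phosphoinositide 3-kinase (0.146), P3h2, a prolyl hydroxylase of basement membrane collagen (0.161), and Galnt16 (0.164). Vegfa (0.193), Suco (0.222) and Lnpep (0.280) came nearest to Sox2.

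For Six3 the nearest were Srrm2, a protein of splicing speckles (0.0499), Haus1, a subunit of augmin (0.0710), and the RNA helicase gene Ddx5 (0.109). For Prox1 they were Ilrun (0.0566), Chpt1, a choline phosphotransferase (0.0634), and Herpud1 (0.0838), and for Maf Alcam, a cell adhesion molecule (0.187), Cxhxorf38 (0.202) and Ank2 (0.204). Zeb2 had Zfp260 (0.119), Fam135a (0.141) and P3h2 (0.150). Among the members themselves the closest pairs were Hsf4 with Meis1 (0.184), Six3 with Prox1 (0.243), Pitx3 with Meis1 (0.261) and Foxe3 with Zeb2 (0.292). The differences of Meis1 are those of a dim gene, as given above.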

How the data were processed

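RNA of rat lenses was hybridized to 5 Rat Gene 2.0 ST arrays, 1 per condition. Values were deposited as log2 signals after RMA, run in R by the authors (background correction, normalization between arrays and a summary per probe set). They were used as deposited, and 0 columns of values were left unmapped. Precision is limited by there being 1 array per condition and by signal over background.

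Symbols came from the platform annotation. Of 36685 probe sets, 18511 had 1 symbol, 575 several and 17599 none; probe sets of a gene with 1 symbol were averaged. All 10 members were found by symbol in a RefSeq gene table, and 8 in a RefSeq promoter table (GRCr8).

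Differences of log2 signals, counts at 2-fold, medians and root mean square distances were taken with numpy 2.4.6 and pandas 2.3.3 under Python 3.11.15, and plots drawn with matplotlib 3.10.9. No test was possible and no p-value is given. The difference and call steps were run on simulated arrays with planted 4-fold shifts and noise of SD 0.1. Such shifts lie far past the 2-fold limit, so this run checks the code and not the precision of these data. The members and gene lists were chosen with earlier results of these data known. The background of genes with a Control signal like that of the members was chosen after the values were seen.

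Named were all members, the 3 genes of each other list with the largest difference among those that reach 5, and the 3 genes nearest to each changed member. Values relative to the median gene are differences from Control less the median difference over the 4033 genes that reach 5. The alternatives were centring of arrays on the median signal of those genes or of olfactory receptor probe sets, quantile normalization, the brightest probe set of a gene, and signal filters of 5 and 6. With no spread between replicates, a value was said to move where it shifted by over 1.5-fold.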

Additional observations from a re-analysis of the deposited data

How the results depend on the processing

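The 16 main values were the epithelial and fiber medians, their gap and the count of members at least 2-fold lower, in 4 arrays. Of these, 14 stayed within 1.5-fold of the value given under 3 alternatives. These alternatives were centring on the median signal of the genes that reach 5, centring on olfactory receptor probe sets, and quantile normalization. Neither centring can move a gap, so for the gaps only quantile normalization was a check. The brightest probe set and the signal filters of 5 and 6 could not move any of the 16 values. Each member has 1 probe set and the filters leave out Meis1 alone, so these settings say nothing of stability. The other 2 moved when arrays were centred on the median of the genes that reach 5. In MMS Day 4 the epithelial median became -1.66 and the fiber median 0.067. The fiber median in Bleomycin Day 2 changed sign as well, to 0.056, with a smaller shift. The 10 members' own MMS Day 4 values moved with them, and no called value changed sign. The gap between the sets ranged over -1.73 to -1.68 in MMS Day 4, -1.28 to -1.23 in MMS Day 2, -1.06 to -0.93 in Bleomycin Day 2 and -1.24 to -1.23 in Bleomycin Day 6, and centring cannot move it by construction. The count of members at least 2-fold lower was 4 in MMS Day 2 in all settings, and ranged over 4 to 7 in MMS Day 4, 3 to 4 in Bleomycin Day 2 and 5 to 7 in Bleomycin Day 6.

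Calls that depended on scaling were those of Six3 in MMS Day 4 (-0.99 with centring) and Bleomycin Day 6 (-0.61 with centring, -0.75 with quantile normalization) and of Prox1 in MMS Day 4 (-0.60 and -0.85). Centring on olfactory receptor probe sets added Sox2 in Bleomycin Day 2 (-1.07), Maf in MMS Day 4 (-1.24) and Prox1 in Bleomycin Day 6 (-1.05). Of the genes that reach 5 and were 2-fold apart from Control, 88.8%, 95.5%, 92.0% and 93.3% were lower in the 4 treated arrays, MMS first, against 62.9%, 59.7%, 68.6% and 67.3% with centring and 73.5%, 85.9%, 81.5% and 83.3% with quantile normalization. Centring shifted the median gene by 0.29, 0.63, 0.29 and 0.47. No paired analysis was possible because each condition has 1 array and the labels give no replicate numbers. In the study's scheme 1 lens of each animal was given the drug and its other lens was kept in vehicle medium. The labels name no animal, so whether any treated lens shared an animal with Control is not known. Differences between animals cannot be told apart from those between conditions. The signals of treated Foxe3 and Zeb2, of Pax6 and Sox2 in 3 treated arrays each, and of Meis1 in all arrays were under 5, where precision was not measured, and the 8.48-fold (Pax6) and 7.46-fold (Sox2) differences rest on such values.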

Other observations

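Notch signaling acts between lens epithelial and fiber cells, and 5 of 6 listed effectors were on the array, of which 2 reached a signal of 5. Heyl, a repressor induced by Notch, had a log2 signal of 4.91 and 5.07 after 2 and 4 days of MMS, 4.91 and 5.13 after 2 and 6 days of Bleomycin, and 4.05 in Control, so that all 4 treated arrays lay above Control, by 0.87, 1.03, 0.87 and 1.08. Its values in MMS Day 2 and Bleomycin Day 2 were equal to the last digit printed. Hes1, the better known effector, had 0.48, -0.26, -0.20 and 0.01, with both signs. None of the 5 was 2-fold lower. Heyl was the 1 called 2-fold higher, in MMS Day 4 and Bleomycin Day 6, where 2.33% and 1.66% of all genes were. Heyl reached 5 in those arrays alone and Hes1 in MMS Day 2 alone. Each thus passed the limit only where it was high, and nothing is read from the call.

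Equal values recur among the members. Of their 50 values, 7 were shared to the last digit with another probe set of the same array, and 2 of these with more than 10 others (Pax6 in Bleomycin Day 2 and Foxe3 in MMS Day 2). Cdh1 in Bleomycin Day 6 had a log2 signal of 4.40, equal to that of Foxe3 in MMS Day 2 to the last digit. How RMA gave these values was not tested.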
